A study of Mus musculus with 2 samples.

Results

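Among 12065 midbrain nuclei of the dopamine lineage that had at least 500 detected genes, 363 nuclei held Sox6 and Tacr3 and had no or few captured molecules of genes that mark other Sox6 dopamine neurons. They were selected on their own unique molecular identifiers (UMIs, each standing for 1 captured RNA molecule). A nucleus was a member if it held at least 1 UMI of Sox6 and at least 1 of Tacr3, no UMI of Aldh1a1, Anxa1, Calb1, Grin2c or Tmem163, and at most 1 UMI of Alk, Vcan and Tox together. Of 3110 Sox6 nuclei in the male library 227 were members, a share of 7.30% (95% exact Clopper-Pearson interval 6.41 to 8.27). Of 2818 Sox6 nuclei in the female library 136 were members, a share of 4.83% (interval 4.06 to 5.68). These intervals cover counting error only. Each sex was 1 library, so sex and library cannot be told apart, and the shares were not tested against each other.

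The nuclei came from adult mice carrying DAT-IRES-Cre and the CAG-Sun1/sfGFP reporter, in which Cre from the dopamine transporter locus turns on a green nuclear envelope protein in every cell that has used that locus. Green nuclei were sorted from a dissected ventral midbrain block. The male library pooled 2 mice and the female library pooled 3, none of them treated, and nuclei were not traced to an animal. The male library held 21609454 UMIs in 6556 kept nuclei and the female library 19843000 UMIs in 5509. Both libraries sampled 1 condition. The tests below took out the difference between these 2 pools. Their p-values rest on counting error and on a spread shared across genes, and do not measure the spread between mice. There were 6 barcodes present in both libraries, and 0 of them belonged to members.

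Midbrain dopamine neurons fall into subtypes that share dopamine synthesis but differ in transcription factors, receptors and projections. Sox6 encodes a transcription factor that marks much of the substantia nigra pars compacta. Within that class Aldh1a1, a retinaldehyde dehydrogenase, and Anxa1, annexin A1, mark ventral neurons. Tacr3 encodes the receptor for the tachykinin neurokinin B, a receptor that signals through Gq proteins and phospholipase C.

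Members had a median of 3310 UMIs in the male library and 3426 in the female library. Each member was therefore set against Sox6 nuclei of the same depth, 5 comparison nuclei for each member, which gave 1135 male and 680 female nuclei with medians of 3311 and 3430 UMIs. UMIs were summed over nuclei within each library, and levels are given as CPM, the UMIs of a gene per 1000000 UMIs of all genes, a scale on which values of 1 gene can be compared between groups of nuclei. Nuclei are not replicates, and every test below was made on these sums with the library as a block.

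The genes of the rule describe how the members were chosen and were not tested. Tacr3 (chromosome 3, 134829007 to 134934579, plus strand, mm10) stood at 514 CPM in male members and 490.5 in female members, against 51.6 and 48.0 CPM in the other Sox6 nuclei. Of the members, 55.9% in the male library and 55.1% in the female library held exactly 1 Tacr3 UMI, so most of them stood at the threshold. Among nuclei with at least 3 oligodendrocyte markers, taken as background, 19.3% of 150 male and 31.4% of 51 female nuclei held a Tacr3 UMI, against 11.6% and 10.1% of the other Sox6 nuclei. The background nuclei had medians of 3682 and 2487 UMIs. After thinning to 1000 UMIs these shares were 6.52% and 21.1% in the background and 4.32% and 3.38% in the others. The background was thus at or above the other Sox6 nuclei, and in a single nucleus 1 Tacr3 UMI alone cannot be told apart from it. Before thinning, 45.3% and 41.2% of the background nuclei held a Sox6 UMI and 60.0% and 60.8% a Th UMI, so they were not free of neuronal RNA. Levels of other genes in members with exactly 1 Tacr3 UMI are given below. Sox6 was at 539 and 611 CPM in members and at 617 and 668 CPM in the others. The 5 genes required to be at 0 reached up to 259.6 CPM in the other Sox6 nuclei, which was Aldh1a1 in the female library. A UMI of Alk, Vcan or Tox was held by 61 male and 43 female members (26.9% and 31.6%), and 0 UMIs of a gene at this depth do not show that the gene was silent. Alk, a receptor tyrosine kinase, was at 47.7 and 54.7 CPM in members and at 176 and 193 CPM in the others.

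**Figure D1:**
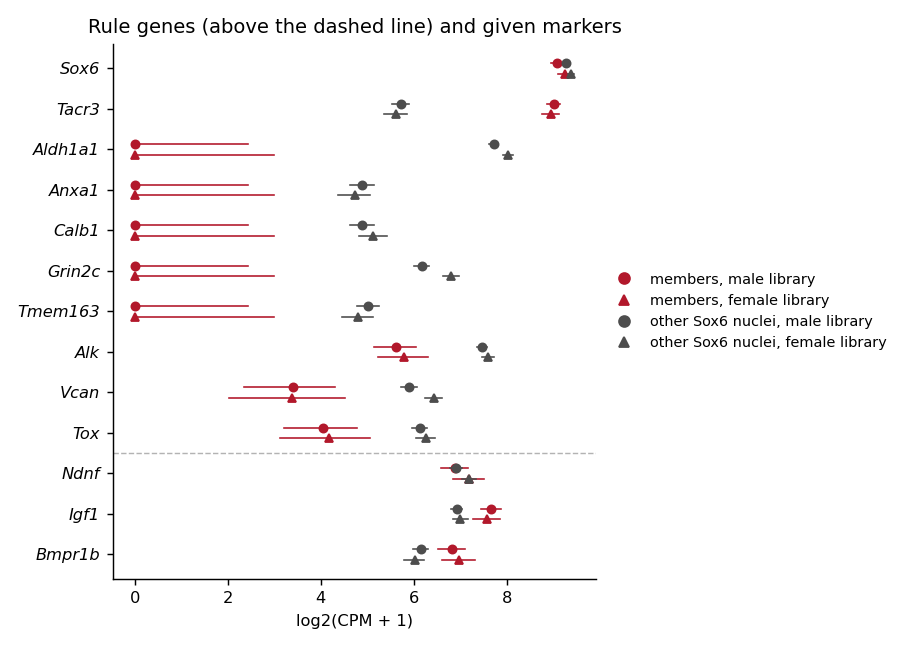
Level of the 10 genes of the rule and of Ndnf, Igf1 and Bmpr1b, as log2(CPM + 1) on the x axis, in members (red) and depth-matched other Sox6 nuclei (grey) of the male (circles) and female (triangles) libraries; lines are exact Poisson 95% intervals, which cover counting error only. Ndnf lies at the same place in members and others, while Igf1 and Bmpr1b lie to the right in members.

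The label was checked against 3 further genes put forward as markers of these nuclei, which the rule did not use. These genes were proposed with results of these data known, so they are described here without a test. The fits across all genes reported below included them. Igf1 and Bmpr1b count among the called genes of the main fit, and their fitted values against nuclei without Tacr3 are given below. Because of how the genes were proposed, those values are no independent test of them. Ndnf, which encodes a secreted neurotrophic factor, did not mark the members. It was at 117 CPM in male members and 145 in female members, against 119 and 145 CPM in the other Sox6 nuclei. Igf1, the insulin-like growth factor gene, was at 202 and 189 CPM in members and at 120.3 and 127 CPM in the others. Bmpr1b, a type I receptor for bone morphogenetic proteins, was at 112 and 125 CPM in members and at 69.9 and 63.7 CPM in the others. By CPM, Igf1 and Bmpr1b were thus higher in members of both libraries, and Ndnf was not. After thinning to 1000 UMIs, Igf1 was held by 17.6% of male and 13.2% of female members, against 136 of 1135 and 88 of 680 (12.9%) of the others, so the thinned share hardly differed in the female library. Before thinning it was held by 42.7% of male and 44.9% of female members, against 30.3% and 33.8% of the others. Bmpr1b was held by 11.9% and 13.2% of members against 5.99% and 5.88% of the others. In the background nuclei with at least 3 oligodendrocyte markers, thinned shares were 2.90% of 138 male and 5.26% of 38 female nuclei for Bmpr1b. For Igf1 they were 8.70% and 0%, where the exact interval for the latter reaches 9.25%.

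The members carried the markers of dopamine neurons at the level of the other Sox6 nuclei. Th, the rate-limiting enzyme of dopamine synthesis, was at 359 and 515 CPM in members and at 316 and 429 CPM in the others. The 7 dopaminergic markers together summed to 2986 and 3901 CPM in members and to 2944 and 3830 CPM in the others, and none of the 7 passed the test, whose smallest adjusted p in edgeR was that of Th at 0.102. At an unadjusted p under 0.05, 1 was higher and 1 lower, and DESeq2 called 0. Gad1, which encodes a GABA-synthesizing enzyme, was at 0 in members of both libraries. The 3 GABAergic markers summed to 7.16 CPM in male members and 1.89 CPM in female members, with Gad2 the most abundant, against 10.2 and 8.24 CPM in the others. The 3 glutamatergic markers summed to 10.7 and 7.55 CPM in members, with Slc17a6, the vesicular glutamate transporter 2 gene, the most abundant in the female library, and to 7.11 and 3.37 CPM in the others.

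Glial and vascular markers were also measured, because a nucleus can pick up RNA of another cell. Cldn11 was at 0 in members of both libraries, and the 7 oligodendrocyte markers summed to 87.1 and 71.7 CPM in members against 119 and 46.8 CPM in the others, which is lower in the male library and higher in the female library. The 3 markers of oligodendrocyte precursors summed to 605 and 841 CPM in members against 711 and 809 CPM in the others, nearly all of it Ptprz1, with Cspg4 at 0 in members of both libraries. Aqp4, Gja1 and Gfap were at 0 in members of both libraries, and the 5 astrocyte markers, nearly all Slc1a2, summed to 180.2 and 157 CPM against 137 and 133 CPM. Slc1a2, the 1 astrocyte marker tested, had a log2 fold change of 0.35 ± 0.11 (adjusted p = 0.0549 in edgeR, unadjusted p = 0.00245), and it passed with another draw of comparison nuclei and without the deepest nuclei. The 4 microglial and the 4 endothelial markers stayed below 6 CPM in members of each library. The part of such RNA in the results below was not tested.

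Across 10690 genes outside the rule, 234 were higher in members than in the depth-matched other Sox6 nuclei and 219 were lower (quasi-likelihood F-test of edgeR, blocked by library, Benjamini-Hochberg adjusted p under 0.05), which is 2.19% and 2.05% of the genes tested. The change was at least 2-fold for 45 of the higher and 58 of the lower genes. Both libraries moved the same way for 232 of the higher and all 219 of the lower genes. The exceptions were Hs3st4 and Tecpr1, named here because their libraries differed. Hs3st4, a heparan sulfate sulfotransferase gene, was 1.21 higher on the log2(CPM + 1) scale in male members and 0.92 lower (-0.92) in female members. The number of called genes fell to 129 with DESeq2 and to 66 in edgeR without the library block. Of the 110 named genes called here, 38 also passed with DESeq2, 27 did not, and DESeq2 gave no adjusted p for the other 45, which its own filter on low counts set aside. Without the library block 82 of the 110 lost their call, and with no filter on low counts 20 did. Of those still tested, 38 lost it and 55 kept it after thinning to 1000 UMIs, and 24 lost it and 79 kept it when members had to hold at least 2 Tacr3 UMIs.

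**Figure D2:**
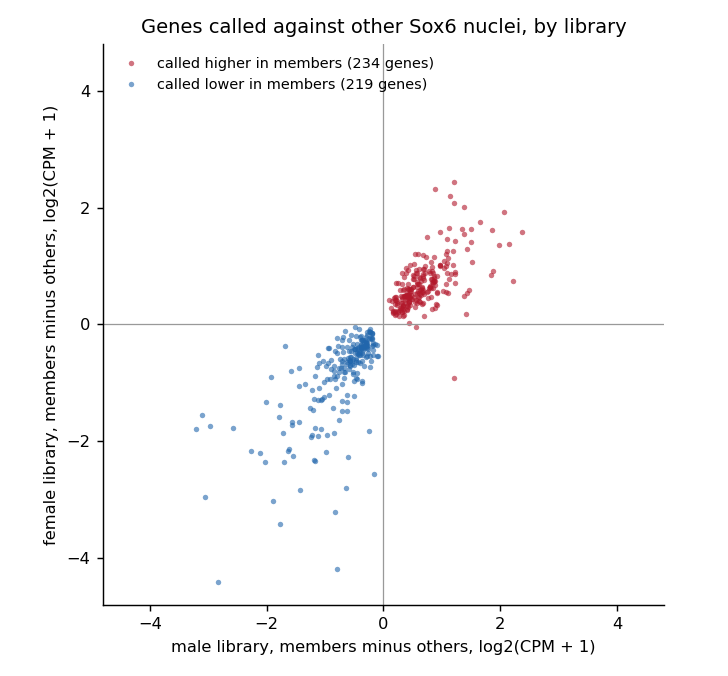
Difference between members and depth-matched other Sox6 nuclei in the male (x axis) and female (y axis) library, as log2(CPM + 1), for the genes called higher (red, 234) or lower (blue, 219) in members. Apart from 2 red points, all called genes lie in the quadrant of their direction in both libraries.

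Tmem132d, Slc44a5, Stard13, Fras1 and Calcrl were among the 12 genes with the largest increase. Tmem132d (chromosome 5, 127781630 to 128433077, minus strand), a transmembrane protein gene, was at 113 CPM in male members and 136 CPM in female members. The other Sox6 nuclei had 42.9 and 33.0 CPM, so the groups did not overlap, and members were 1.65 ± 0.16 higher on the log2 scale (fitted value ± SE, adjusted p = 2.34e-23 in edgeR). Slc44a5 (chromosome 3, 153973436 to 154271722, plus strand), of the choline transporter-like family, was at 327 and 319 CPM in members and at 115 and 102 CPM in the others (log2 fold change 1.55 ± 0.10). It had been listed as a gene of ventral Sox6 neurons, and it was higher in these nuclei, which were chosen to hold no Aldh1a1 UMI. Stard13, which encodes a GTPase-activating protein, was at 54.9 and 58.5 CPM in members and at 14.4 and 18.4 CPM in the others (log2 fold change 1.81 ± 0.24). After thinning to 1000 UMIs, a Stard13 UMI was held by 7.93% of male members and 2.94% of female members, against 1.45% and 10.5% of nuclei with at least 3 oligodendrocyte markers, and before thinning by 12.3% and 13.2% against 20.0% and 29.4%. The median depth was 3310 and 3426 UMIs in members and 3682 and 2487 UMIs in the oligodendrocyte-marker nuclei, or 3941 and 3455 UMIs in those deep enough to be thinned. The share of members with Stard13 was thus above this background in the thinned male library alone, and the part of their RNA in the Stard13 result was not tested. Tmem132d after thinning was at 10.1% and 14.7% in members against 8.70% and 7.89% in the background nuclei, with overlapping intervals. Fras1, which encodes an extracellular matrix protein of basement membranes, was at 97.8 and 67.9 CPM against 30.6 and 19.5 CPM. Calcrl, the receptor for calcitonin gene-related peptide and adrenomedullin, was low throughout, at 15.5 and 22.6 CPM in members and at 6.16 and 3.37 CPM in the others. Insyn2a, Gas7, Cdh7 and Galnt18 were also among the 12 largest increases, with log2 fold changes of 1.74, 1.49, 1.49 and 1.48. Insyn2a lost its call without the library block and without the deepest nuclei. It also lost it with at least 2 Tacr3 UMIs and with Alk, Vcan and Tox at 0. Gas7, Cdh7 and Galnt18 kept theirs in each of these settings. Slc44a5 passed with DESeq2 as well, and the other genes of this paragraph had no adjusted p there.

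The largest decreases were mostly genes with few UMIs in members. Of the 12 largest, 8 had at most 3 UMIs in all members together. The first was Aldh1a7, a close paralog of Aldh1a1, with 1 UMI in members against 116 in the others, a CPM ratio of 0.0434 (exact interval 0.00109 to 0.247). Reads of the 2 paralogs could have been split between them, and Aldh1a1 was set to 0 by the rule, so this value is uncertain. Tafa4, Pcdh18, Tbc1d7, Kitl, Mpped1, Man1a and Prss12 had 1 to 3 UMIs each, with upper bounds of their CPM ratios between 0.420 and 0.638. All of these lost their call without the library block. Prss12 and Tbc1d7 also lost it with another draw of comparison nuclei, with no matching on depth and without the deepest nuclei. Pcdh18 lost it with no matching on depth and with no filter on low counts, Tbc1d7 with no filter, and Man1a without the deepest nuclei. Prss12 lost it further with a minimum of 1000 detected genes. Tmem47 had 4 UMIs, all in the male library. Of the 219 lower genes 1 overlaps a gene of the rule, C730002L08Rik, which lies over Aldh1a1.

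Lower genes with ample counts were Ntng1, Zfp804b and L3mbtl4. Ntng1 (chromosome 3, 109780040 to 110144011, minus strand), which encodes the membrane-anchored axon guidance protein netrin-G1, was at 94.3 and 113 CPM in members. The other Sox6 nuclei had 414 and 525 CPM, a log2 fold change of -2.17 ± 0.11 (adjusted p = 2.22e-82 in edgeR). Zfp804b, a zinc finger protein gene, was at 91.9 and 75.5 CPM against 376 and 389 CPM, and L3mbtl4, of a family of histone-binding proteins, was at 22.7 and 28.3 CPM against 113 and 130.4 CPM. Ntng1 and Zfp804b also passed with DESeq2, which gave no adjusted p for L3mbtl4.

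**Figure D3:**
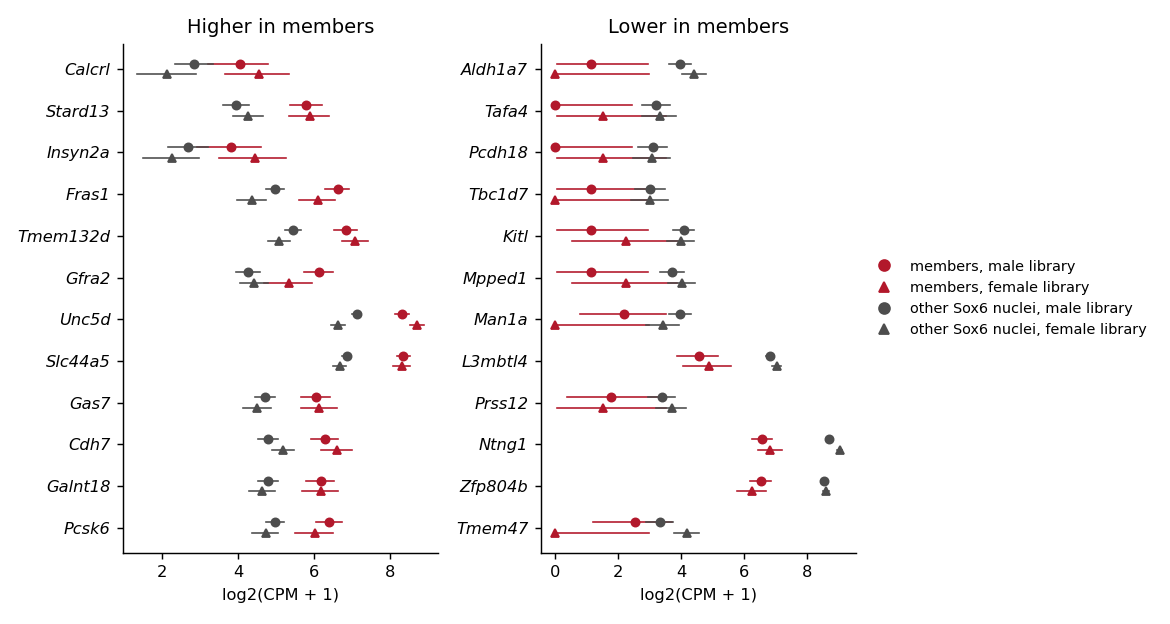
Level as log2(CPM + 1) on the x axis of the 12 genes with the largest increase (left) and the 12 with the largest decrease (right) in members (red) against depth-matched other Sox6 nuclei (grey), in the male (circles) and female (triangles) libraries; lines are exact Poisson 95% intervals. Ntng1, Zfp804b and L3mbtl4 lie far from 0 in both groups, whereas most other genes on the right have members at or near 0.

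Glutamate receptor genes changed in both directions. Of 24 genes in the list 22 were tested, 4 were higher and 4 lower (2.19% and 2.05% of all tested genes), and their median log2 fold change was -0.06 beside 0.00 (-0.0017) for all tested genes. At an unadjusted p under 0.05, 4 were higher and 9 lower, and DESeq2 called 2 higher and 3 lower. Grin2a (chromosome 16, 9567898 to 9995560, minus strand), the GluN2A subunit of the NMDA receptor, was at 1425 and 1424 CPM in members and at 621 and 598 CPM in the others (log2 fold change 1.22 ± 0.06, adjusted p = 8.3e-90 in edgeR). The other higher genes were the metabotropic receptors Grm7, at 841 and 783 CPM against 393 and 378 CPM, and Grm8, and the kainate receptor subunit Grik3. The lower ones included Grik1, at 286 and 343 CPM against 566 and 563 CPM, Grm5 and Grid1. Grik3 lost its call with DESeq2, without the library block, after thinning and with at least 2 Tacr3 UMIs. Grm8 lost its call without the block and after thinning, and Grm5 and Grid1 lost theirs without the block. Grm5 is a metabotropic receptor coupled to Gq, and Grm7 and Grm8 are coupled to Gi. With each nucleus thinned to 1000 UMIs, 68.3% of male members (exact interval 61.8 to 74.3) and 69.9% of female members (61.4 to 77.4) held a Grin2a UMI. The other Sox6 nuclei had 35.3% (32.5 to 38.2) and 34.7% (31.1 to 38.4). Nuclei with at least 3 oligodendrocyte markers, taken as background, had 40.6% (32.3 to 49.3) and 52.6% (35.8 to 69.0) after 12 and 13 shallower nuclei were left out, so the share in the other Sox6 nuclei did not exceed this background. The share in members was above it in both libraries, with overlapping intervals in the female library. The background nuclei were not free of neuronal RNA, since 24.6% and 28.9% of them held a Th UMI after thinning, and their median depths were 3941 and 3455 UMIs. Before thinning, 92.1% of male members and 94.1% of female members held a Grin2a UMI, against 60.9% and 59.9% of the other Sox6 nuclei.

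Of 16 GABA receptor genes 12 were tested, with Gabrb2 higher and Gabrg3 lower (log2 fold changes 0.84 and -0.63) and a median of -0.01. Among all tested genes 2.19% were higher and 2.05% lower. Gabrb2 and Gabrg3 lost their call without the library block, and Gabrg3 also with DESeq2. Of 33 cholinergic, serotonin, adrenergic and dopamine receptor genes 16 were tested, with Chrna7 and Chrm3 higher and Htr2c and Chrna6 lower, and a median of -0.01. These calls stand beside the same shares of all tested genes. Htr2c rested on the female library, where it was at 7.55 CPM in members and 49.5 CPM in the others, whereas the male library had 35.8 and 40.3 CPM. Its call was lost in edgeR under every alternative but library size scaling, and DESeq2 gave it no adjusted p. Chrna6, Chrna7 and Chrm3 each lost their call with no filter on low counts and without the library block, Chrna6 and Chrna7 with at least 2 Tacr3 UMIs, Chrna6 after thinning and with Alk, Vcan and Tox at 0, and Chrna7 with a minimum of 1000 detected genes. Of 50 tachykinin and other neuropeptide receptor genes 14 were tested, and their median was 0.09. Calcrl was the only one called, beside the same shares of all tested genes. Its call was lost without the library block and without the deepest nuclei. Of 29 neuropeptide genes 5 were tested and 0 passed in edgeR, with a median of -0.07. At an unadjusted p under 0.05, 1 was lower, and DESeq2 gave none of the 5 an adjusted p. The most abundant genes of this list were Nxph1 and Chga, which encode neurexophilin 1 and the secretory granule protein chromogranin A.

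The genes called in the list of Gq and phospholipase C signalling were all lower in members, while the list as a whole was not shifted down. Of 35 genes of Gq and phospholipase C signalling 28 were tested, 0 were higher and 5 were lower in edgeR (2.19% and 2.05% of all tested genes), with a median of 0.02. At an unadjusted p under 0.05, 5 were higher and 9 lower, and DESeq2 called 0 higher and 2 lower. The lower genes were the diacylglycerol kinases Dgkz and Dgki, the protein kinase C genes Prkca and Prkce, and Rgs6, a regulator of G protein signalling at 1368 and 1324 CPM in members against 1848 and 1774 CPM. All 5 changed less than 2-fold, with log2 fold changes from -0.47 to -0.27. All 5 lost their call without the library block. Dgkz also lost it with DESeq2, and Dgki and Prkce with DESeq2, after thinning and when members had to hold at least 2 Tacr3 UMIs. Prkce lost it further with a minimum of 1000 detected genes, without the deepest nuclei and with Alk, Vcan and Tox at 0.

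Ion channel genes split evenly. Of 44 genes for HCN, calcium, potassium and related channels 41 were tested, 6 were higher and 6 lower (2.19% and 2.05% of all tested genes), with a median of 0.07. Kcnd2, which encodes the Kv4.2 A-type potassium channel, was at 630.0 and 526 CPM in members and at 431 and 429.7 CPM in the others. Kcnip4, an auxiliary subunit of Kv4 channels, was at 2856 and 2928 CPM in members and at 5156 and 5100.4 CPM in the others (log2 fold change -0.83 ± 0.05). The Kv4 channel partners Dpp10 and Dpp6 were lower too, as were Kcnip3 and Cacna1g. The higher genes besides Kcnd2 were Kcnc2, Cacna1a, Scn3a, Cacna2d3 and Cacna1e. Scn3a kept its call with library size scaling alone among the alternatives. Cacna1e, Cacna2d3, Cacna1g and Dpp6 each lost theirs with DESeq2, without the library block and after thinning. Beyond these, Cacna1e and Cacna2d3 lost theirs with no filter on low counts, Cacna2d3 and Cacna1g without the deepest nuclei and with at least 2 Tacr3 UMIs, Cacna1e and Cacna1g with Alk, Vcan and Tox at 0, and Cacna1e with no matching on depth. Kcnip3 lost its call with no filter, without the block, without the deepest nuclei, after thinning and with Alk, Vcan and Tox at 0. Kcnd2 and Dpp10 lost theirs without the block and after thinning, Kcnc2 with DESeq2, without the block and with at least 2 Tacr3 UMIs, and Cacna1a and Kcnj6 without the block, whereas Kcnip4 kept its call under each alternative. Kcnj6, the GIRK2 channel through which D2 autoreceptors act, was at 858 and 1004 CPM in members against 1242 and 1310.1 CPM.

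Receptors for related growth factors went opposite ways. Gfra2, the co-receptor for neurturin, was at 69.2 and 39.6 CPM in members and at 18.2 and 20.6 CPM in the others (log2 fold change 1.57 ± 0.23). Gfra1, the co-receptor for glial cell line-derived neurotrophic factor, was at 125 and 113 CPM in members and at 291 and 315 CPM in the others (log2 fold change -1.32 ± 0.11). Neurotrophin-3, encoded by Ntf3, and its receptor gene Ntrk3 were both higher, with log2 fold changes of 0.83 and 0.62. In the list of 33 GDNF, neurotrophin and FGF genes 22 were tested, 4 were higher and 4 lower (2.19% and 2.05% of all tested genes), and the median was 0.15. Nrg1 was the remaining higher gene, and Fgf1, Fgf13 and Nrg3 were the remaining lower ones. Without the library block all called genes of this list but Gfra1 lost their call. Ntf3 also lost it with DESeq2 and after thinning, Fgf13 after thinning, and Nrg1 and Fgf1 after thinning and with no filter on low counts. Nrg1 lost it further with at least 2 Tacr3 UMIs, and Fgf1 with Alk, Vcan and Tox at 0. Of 20 IGF and insulin genes 9 were tested, with a median of -0.06. Pappa, a protease that cleaves IGF-binding proteins, was the only one called, higher at 319.8 and 279 CPM against 152 and 173 CPM. Of 39 BMP and TGF-beta genes 20 were tested, with a median of 0.15. Fstl5, a follistatin-like gene, was the only one called, higher at 363 and 355 CPM against 177 and 182 CPM. Both calls stand beside the same shares of all tested genes.

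**Figure D4:**
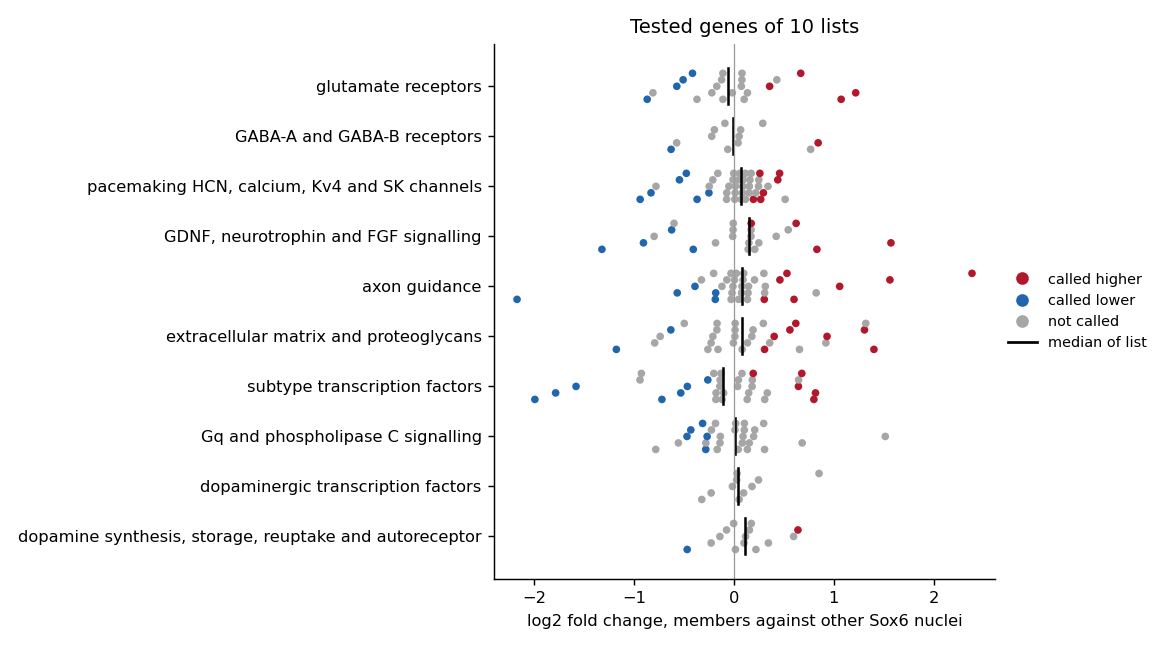
Log2 fold change (x axis) of members against depth-matched other Sox6 nuclei for the tested genes of 10 lists, with genes called higher in red, called lower in blue and not called in grey; black bars are list medians. Most lists hold called genes on both sides of 0, and the 5 called genes of the Gq list all lie below 0.

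Of 39 axon guidance genes 35 were tested, 7 were higher and 5 lower (2.19% and 2.05% of all tested genes), with a median of 0.08. Unc5d, a netrin receptor family member, was at 319.8 and 421 CPM in members and at 139 and 98.5 CPM in the others (log2 fold change 1.56 ± 0.09). Sema3e, a secreted semaphorin, was rare, with 11 and 6 UMIs in members, and had a log2 fold change of 2.38 ± 0.60. Plxnc1, Epha6, Plxna2, Robo1 and Plxna4 were the other higher genes, and beside Ntng1 the lower ones were Epha3, Efna5, Robo2 and Epha5. Of these called genes only Unc5d, Epha6 and Ntng1 kept their call without the library block. Efna5, Plxna4, Plxna2, Robo2 and Epha5 also lost theirs with DESeq2. Efna5 lost it further with another draw of comparison nuclei and with Alk, Vcan and Tox at 0. Plxna4 lost it further with no filter on low counts and after thinning, and both with at least 2 Tacr3 UMIs. Of 43 extracellular matrix and proteoglycan genes 31 were tested, 7 were higher and 2 lower beside the same shares of all genes, with a median of 0.08. Spock3, the proteoglycan testican-3, was at 339 and 368 CPM in members and at 144 and 137 CPM in the others, and Pcsk6, a proprotein convertase, was at 83.5 and 64.1 CPM against 30.6 and 25.5 CPM. Spon1, Tnr, Gpc6, Sdc2 and Adamtsl1 were also higher, and the collagens Col11a1 and Col25a1 were lower. Spon1, Tnr, Sdc2 and Adamtsl1 lost their call without the library block. Tnr and Sdc2 also lost it with DESeq2, and Spon1 and Tnr after thinning. Spon1 lost it further with no filter on low counts and with Alk, Vcan and Tox at 0.

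Of 44 transcription factors known from dopamine subtypes 32 were tested, 5 were higher and 7 lower in edgeR, with a median of -0.11, beside 2.19% higher and 2.05% lower among all tested genes. At an unadjusted p under 0.05, 6 were higher and 9 lower. DESeq2 called 3 higher and 1 lower and gave 17 of the 32 no adjusted p. Lmo3, a LIM-only cofactor, was at 124 and 108 CPM in members and at 411 and 393 CPM in the others (log2 fold change -1.78 ± 0.11). Bcl11b was lower and its paralog Bcl11a higher, with log2 fold changes of -1.58 and 0.82. Foxp2, Pou2f2, Tox3 and Zfhx3 were the other higher factors, and Ebf2, Ebf3, Zfhx4, Klf12 and Satb1 the other lower ones. Of the called factors only Lmo3 kept its call without the library block. Zfhx3, Ebf3, Zfhx4, Klf12 and Satb1 also lost theirs with DESeq2, and Zfhx3, Klf12, Satb1, Bcl11a and Pou2f2 after thinning. Zfhx3 lost it further with no filter on low counts and Klf12 with another draw of comparison nuclei. Klf12, Bcl11b and Ebf2 lost theirs with at least 2 Tacr3 UMIs, and Bcl11b with Alk, Vcan and Tox at 0. Of 11 shared dopaminergic factors 10 were tested and 0 passed in edgeR or DESeq2, with 1 higher at an unadjusted p under 0.05 and a median of 0.04. Of 15 genes for dopamine synthesis, storage, reuptake and autoreceptors 14 were tested, with Maoa, which degrades monoamines, higher and Kcnj6 lower, and a median of 0.11. These calls stand beside the same shares of all tested genes. Maoa lost its call without the library block, with no filter on low counts and with at least 2 Tacr3 UMIs.

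In the list of 18 genes known from Aldh1a1 or ventral Sox6 neurons 14 were tested, and 6 were lower against 1 higher, beside 2.05% lower and 2.19% higher among all tested genes. Those were Aldh1a7, Lmo3, Serpine2, Fgf1, Col25a1 and Satb1, with Slc44a5 on the other side, and the median was -0.32. The rule, which required Aldh1a1 and Anxa1 to be at 0, acted on the same nuclei, so this direction is not independent of the choice of members. Of 19 genes known from Calb1, Otx2 or Vglut2 neurons 5 were tested and 0 passed in edgeR, with 1 higher at an unadjusted p under 0.05 and a median of 0.28, and DESeq2 gave none of the 5 an adjusted p. Of 19 calcium-binding protein genes 15 were tested, Necab1 was higher at 148 and 191 CPM against 75.6 and 62.9 CPM, Ncald and Caln1 were lower, and the median was 0.03. These calls stand beside the same shares of all tested genes. Ncald and Caln1 lost their call without the library block and after thinning. Ncald also lost it with DESeq2, without the deepest nuclei and with Alk, Vcan and Tox at 0.

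To see what went with Tacr3 itself, members were set against Sox6 nuclei that met every other condition but held no Tacr3 UMI, 227 male and 136 female nuclei of similar depth drawn from 752 and 468. Of 7797 genes tested 81 were higher in members (1.04%) and 56 were lower (0.718%). Tmem132d was at 26.7 and 27.4 CPM in the nuclei without Tacr3, a log2 fold change of 2.16 ± 0.22 (adjusted p = 2.95e-05 in edgeR). Stard13 was at 14.6 and 15.7 CPM there and Pcsk6 at 18.2 and 25.5 CPM. Baiap3, which encodes a protein of the Munc13 family, was at 35.8 and 47.2 CPM in members and at 7.28 and 17.6 CPM without Tacr3. Sfmbt2 completed the 5 largest increases, with a log2 fold change of 1.68 ± 0.41. After thinning, Baiap3 was held by 2.20% and 5.88% of members and 3.62% and 7.89% of the oligodendrocyte-marker nuclei, and Sfmbt2 by 2.64% and 0% of members, where the exact interval for the latter reaches 2.68%, and 2.90% and 2.63% of those nuclei. Before thinning Baiap3 was at 12.3% and 16.9% in members against 12.7% and 11.8%, and Sfmbt2 at 9.69% and 8.82% against 18 of 150 and 2 of 51 background nuclei. After thinning neither gene was above this background in either library. The 5 largest decreases were Stac2, Rbm20, Ltbp1, Ror1 and L3mbtl4. Ltbp1, a binding protein of latent TGF-beta, was at 21.5 and 26.4 CPM in members and at 69.2 and 108 CPM without Tacr3, and Rbm20, a splicing factor gene, was at 5.97 and 7.55 CPM against 27.9 and 23.5 CPM.

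Grin2a, Grm7, Kcnd2 and Gfra2 were higher in members here as well, with log2 fold changes of 0.99, 1.13, 0.63 and 1.53, and Gfra1 and Ntng1 were lower at -1.35 and -1.51. Zfp804b and Lmo3 did not pass (log2 fold changes -0.69 ± 0.19 and -0.47 ± 0.15, adjusted p = 0.0869 and 0.18 in edgeR). Igf1 was at 144 and 170.3 CPM and Bmpr1b at 88.6 and 94.0 CPM in the nuclei without Tacr3, below members in both libraries. Neither passed (log2 fold changes 0.33 ± 0.14 and 0.36 ± 0.17, adjusted p = 0.393 and 0.483 in edgeR). Ndnf was at 150.5 and 125 CPM there, above members in the male library and below them in the female library. Slc1a2, an astrocyte marker in the lists, was higher in members (log2 fold change 0.77) and Ptprz1, a marker of oligodendrocyte precursors, was lower (-0.36). Both comparisons used the same members. DESeq2 called 39 genes in place of 137, and edgeR called 26 without the library block, 0 with no filter on low counts, where 685 had an unadjusted p under 0.05, and 46 when members had to hold at least 2 Tacr3 UMIs. The count rose to 298 with no matching on depth, 250 with library size scaling, 239 without the deepest nuclei and 233 with a minimum of 1000 detected genes.

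**Figure D5:**
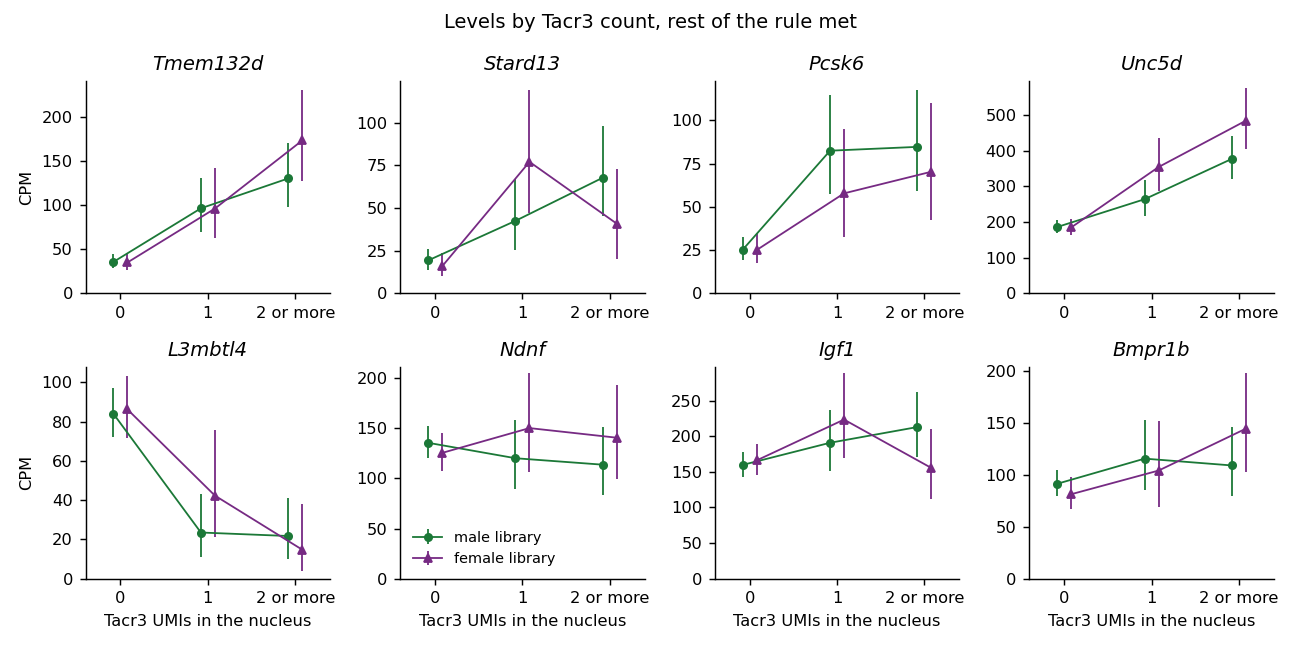
CPM (y axis, from 0) of 8 genes in Sox6 nuclei with 0, 1, or 2 or more Tacr3 UMIs (x axis) that met the rest of the rule, in the male (green circles) and female (purple triangles) libraries; bars are exact Poisson 95% intervals and lines join values of 1 library. Tmem132d and Unc5d were higher at each step in both libraries, L3mbtl4 was lower at each step, and Ndnf shows no common direction.

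The values just inside and outside the thresholds are given as a description, without matching on depth. Tmem132d was at 35.6 and 34.9 CPM with no Tacr3 UMI, at 96.6 and 96.2 CPM with 1, and at 131 and 174 CPM with 2 or more. Unc5d was at 186 and 185 CPM, then 264 and 354 CPM, then 377 and 485 CPM. Both genes were already called between members and nuclei without Tacr3, so these steps are no further evidence. Igf1 was at 159.7 and 166 CPM with no Tacr3 UMI, at 191 and 223 CPM with 1, and at 213 and 155 CPM with 2 or more. Stard13 was at 19.2 and 15.7 CPM, then 42.4 and 77.0 CPM, then 67.7 and 40.7 CPM. In the female library Igf1 and Stard13 were thus highest at 1 Tacr3 UMI. Nuclei that met the rule except for Sox6, 349 male and 221 female, had Tmem132d at 215 and 225 CPM and Bmpr1b at 119.8 and 125 CPM. The same nuclei had Igf1 at 76.1 and 80.6 CPM, Ndnf at 43.8 and 39.5 CPM and Stard13 at 16.7 and 14.8 CPM. Without Sox6, therefore, Tmem132d and Bmpr1b were at or above the level of members and Igf1, Ndnf and Stard13 were below it in both libraries. Grin2a at 1576 and 1660 CPM and Baiap3 at 61.5 and 72.4 CPM were also above members in these nuclei. Slc44a5 at 173 and 179 CPM and Unc5d at 283 and 398 CPM were below members. At the Alk, Vcan and Tox limit, Grin2a was at 1473 and 1428 CPM in members with 1 of those UMIs and at 1305 and 1418 CPM in the 24 and 20 nuclei with 2. Stard13 was at 48.6 and 49.0 CPM with 1 and at 7.63 and 11.3 CPM with 2, which is 1 UMI in each library. Tmem132d was at 105 and 147 CPM with 1 and at 91.6 and 33.8 CPM with 2, and Unc5d at 292 and 371 CPM and then 252 and 146 CPM. These 2 genes were thus lower outside the limit mainly in the female library. At the Aldh1a1 limit, 38 and 34 nuclei with 1 Aldh1a1 UMI that met the rest of the rule had Grin2a at 1049.9 and 882 CPM. The 23 and 19 nuclei with 1 Calb1 UMI had Tmem132d at 279 and 248 CPM and Grin2a at 2079 and 1770.0 CPM, both above members. The 17 and 34 nuclei with 1 Grin2c UMI had Igf1 at 303 and 290.4 CPM and Ndnf at 198 and 231 CPM, also above members, and Tmem132d at 70.0 and 59.4 CPM, below them. The 15 and 5 nuclei with 1 Tmem163 UMI had Igf1 at 123 and 115 CPM, the female value from 2 UMIs.

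Tacr3 was not confined to members: 186 male and 223 female Sox6 nuclei held Tacr3 together with Aldh1a1 or Anxa1. Members were compared with them at similar depth, 122 nuclei a side in the male library (median 4396 UMIs in members and 4491 in the others) and 106 in the female library (3857.5 and 3933.5). The members used here were thus deeper than all members, whose medians were 3310 and 3426 UMIs. Of 6927 genes tested 84 were higher in members (1.21%) and 86 were lower (1.24%). DESeq2 called 35 genes in place of these 170, and edgeR called 29 without the library block and 0 with no filter on low counts, where 665 had an unadjusted p under 0.05. With no matching on depth the count rose to 295. Of the markers of other cells, Slc1a2 was lower in members, at 182 and 164 CPM against 269 and 305 CPM, with a log2 fold change of -0.71 ± 0.14 (adjusted p = 0.000994 in edgeR). Ptprz1 was higher, at 583 and 847 CPM against 531 and 516 CPM (0.43 ± 0.10, adjusted p = 0.00976 in edgeR). The 3 tested oligodendrocyte markers had a median log2 fold change of -0.94, none of them called in edgeR. The part of such RNA in this comparison was not tested. Zfp804b was at 82.0 and 79.8 CPM in these members and at 432 and 522 CPM in the Aldh1a1 or Anxa1 nuclei, the largest decrease among named genes (log2 fold change -2.53 ± 0.15, adjusted p = 4.08e-17 in edgeR). Lmo3 was at 119 and 97.5 CPM against 359 and 435 CPM. Thsd7b, at 57.0 and 59.9 CPM against 182 and 209 CPM, Fbn2, a fibrillin, and Ntng1 were the other 3 of the 5 largest decreases.

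The increases over Aldh1a1 or Anxa1 nuclei were led by Lrrc27, Gas7, Lypd1, Slc44a5 and Spock3. Gas7, which encodes an F-BAR domain protein, was at 69.5 and 75.4 CPM against 21.7 and 19.2 CPM, and Lypd1, a modulator of nicotinic receptors, was at 42.8 and 48.8 CPM against 11.7 and 17.1 CPM. Lrrc27 was rare, at 23.2 and 31.0 CPM against 5.01 and 4.27 CPM. Grin2a was 0.66 ± 0.07 higher on the log2 scale. Tmem132d (-0.26 ± 0.18, adjusted p = 0.68), Grm7 (0.04 ± 0.09, adjusted p = 0.958) and Kcnd2 (-0.01 ± 0.10, adjusted p = 0.998) did not pass in edgeR. Ndnf was at 118 and 159.6 CPM in these members and at 91.8 and 107 CPM in the Aldh1a1 or Anxa1 nuclei, Igf1 at 194 and 177 CPM against 100.2 and 115 CPM, and Bmpr1b at 116 and 135 CPM against 61.8 and 93.8 CPM.

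The last comparison set members against Sox6 nuclei with at least 2 UMIs of Alk, Vcan and Tox and no Tacr3 UMI, 227 male and 136 female nuclei drawn from 694 and 821. Of 7811 genes tested 206 were higher in members (2.64%) and 191 were lower (2.45%). DESeq2 called 112 in place of these 397, and edgeR called 168 without the library block and 226 with no filter on low counts. Ptprz1, the marker of oligodendrocyte precursors, was lower in members, at 604 and 841 CPM against 753 and 982 CPM (log2 fold change -0.30 ± 0.08, adjusted p = 0.0191 in edgeR), and its part in this comparison was not tested. Slc44a5 was at 55.7 and 26.3 CPM in the Alk, Vcan or Tox nuclei, a log2 fold change of 2.85 ± 0.18 (adjusted p = 8.39e-12 in edgeR). Gfra2 was at 11.6 and 1.88 CPM there, Tmem132d at 17.4 and 22.5 CPM and Fras1 at 22.1 and 7.51 CPM. Glra2, a glycine receptor subunit, was at 38.2 and 18.9 CPM in members and at 5.80 and 5.64 CPM in these nuclei. The lower genes were led by Kitl, the ligand of the Kit receptor, Epas1, a hypoxia-inducible transcription factor, Ntng1, Ebf2 and Ror1. Ntng1 reached 702 and 851 CPM in the Alk, Vcan or Tox nuclei, a log2 fold change of -2.92 ± 0.12. Bmpr1b was at 40.6 and 33.8 CPM there, Igf1 at 99.8 and 135 CPM and Ndnf at 85.9 and 101 CPM. All 3 were below the level of members in both libraries.

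Last, the members' place among Sox6 nuclei was described from genes outside the rule. In 20 principal components of the 1000 most variable genes, members made up 17.3% of the 20 nearest neighbours of a member in the male library and 16.0% in the female library. Members were 7.30% and 4.83% of all Sox6 nuclei, and they made up 5.12% and 3.32% of the neighbours of the depth-matched other nuclei. Of the members, 11.9% in the male library and 19.9% in the female library had no other member among their 20 neighbours. Members were thus more frequent near each other than among all Sox6 nuclei, and most of a member's neighbours were nuclei outside the rule. For Sox6 nuclei that met the rule but held no Tacr3 UMI the share of members among neighbours was 6.50% and 4.93%, for Tacr3 nuclei with Aldh1a1 or Anxa1 it was 8.68% and 4.62%, and for the Alk, Vcan or Tox nuclei 2.93% and 1.61%.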

How the data were processed

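GFP+ nuclei of 2 pools of mice were profiled as 10x Genomics libraries. The authors used Cell Ranger 6.0.0 with the mm10 genome, counting intronic reads, and the deposited matrices hold their raw UMI counts. Seurat 4.0.2 is also named in their processing notes. Nuclei below 500 detected genes were dropped here. Doublets were not called or removed, and an alternative left out the deepest 5% of nuclei.

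The members, the gene lists and the tests were chosen with earlier results of these data known, and support nothing independently. Depth was the UMI count outside the 10 rule genes. Comparison nuclei were drawn at random within 10 depth bins set by the members, up to 5 per member (5, 1 and 1 for the other Sox6 nuclei, the nuclei without Tacr3 and the Alk, Vcan or Tox nuclei). For the Aldh1a1 or Anxa1 nuclei, both sides were cut to the smaller number in each bin. Counts were summed per library and tested with edgeR 4.0.16 (filterByExpr, TMM, quasi-likelihood, library as block; R 4.3.3), since both sums of a library come from the same nuclei suspension. With 2 libraries, 1 residual degree of freedom was left per gene and the spread was shared across genes. The study itself tested single nuclei, which was not done here. The rule genes stayed in the fit but were not counted as calls. DESeq2 1.42.0 was an alternative, with other scaling, filters, draws and member thresholds. Principal components used numpy 2.4.6, and intervals scipy 1.17.1.

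Named were the rule genes and 3 proposed markers, the 12 genes (5 in the other comparisons) with the largest called change in each direction that moved the same way in both libraries and had at least 10 UMIs in each library on the higher side, and the called genes of each of 25 lists or, where none was called, its 2 most abundant genes. Gene models without a standard symbol were only counted. A few genes that this rule names are not reported here. Coordinates are from GENCODE M21 (GRCm38, the assembly of mm10).

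On simulated counts with 200 genes changed, the step recovered 86% of 4-fold and 41% of 2-fold changes in the main comparison, with 1.55% false calls. The share of false calls was 5.26% against nuclei without Tacr3, 1.77% against Aldh1a1 or Anxa1 nuclei and 7.14% against Alk, Vcan or Tox nuclei. The simulation gave every gene the same fixed spread and the same change in both libraries. The real counts need not have either property, so these shares do not give the rate of false calls in the real comparisons.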

Additional observations from a re-analysis of the deposited data

How the results depend on the processing

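The 2 sums of each library were blocked by library. With no replicate block, edgeR called 66 genes in place of 453 against the other Sox6 nuclei, 26 in place of 137 against nuclei without Tacr3, 29 in place of 170 against Aldh1a1 or Anxa1 nuclei and 168 in place of 397 against Alk, Vcan or Tox nuclei. DESeq2 called 129, 39, 35 and 112 genes in the same order, out of 1983, 993, 1822 and 3720 genes to which its own filter gave an adjusted p, and thinning every nucleus to 1000 UMIs, which leaves fewer genes to test, left 206, 87, 60 and 140. With no filter on low counts, edgeR called 0 genes against nuclei without Tacr3 (685 had an unadjusted p under 0.05), 0 against Aldh1a1 or Anxa1 nuclei (665 had), and 226 against Alk, Vcan or Tox nuclei. With no matching on depth, the count was 298 against nuclei without Tacr3 and 295 against Aldh1a1 or Anxa1 nuclei. Against nuclei without Tacr3 it was also 250 with library size scaling, 233 with a minimum of 1000 detected genes, 239 without the deepest nuclei and 46 with at least 2 Tacr3 UMIs. The cause of these differences was not tested. Every other alternative count lay within 1.5 times its main value. Leaving out a library leaves no residual degrees of freedom, so no count was made for it. No gene that the naming rule chose and that was called against the other Sox6 nuclei changed sign under an alternative that tested it. The rule for the largest changes required the same direction in both libraries, so their shared sign is no sign of stability, and Hs3st4 and Tecpr1, which it left out, differed in sign between the libraries. With 10 components or 10 neighbours in place of 20, members made up 16.4% to 18.5% of their own neighbours.

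Depth limits what a single nucleus shows: before thinning 29.1% and 33.8% of members held an Ndnf UMI, and after it 10.6% and 12.5%. With 2 pools of mice and sex tied to library, differences between animals or sexes could not be examined.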
